A study of Arabidopsis thaliana with 2 samples.

Results

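The genes described here are 10 Arabidopsis thaliana loci of the hybrid proline-rich, EARLI1-type lipid transfer protein family, taken from a list of locus tags and matched to probe sets of the array. Of the 10, 8 had a named probe set: 6 had one of their own and AT4G12510 and AT4G12520 shared 1, giving 7 probe sets. AZI1 (AT4G12470) and EARLI1 (AT4G12480) had none under the annotation used and have no value here. The array holds named probe sets for 13355 genes in all. The members were selected on the OE-N6 over wild-type signal ratios of several of them, so these ratios describe the members and test nothing. The annotation tables give a descriptive name only for AZI1 and EARLI1, and the family membership of the others rests on the list.

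Hybrid proline-rich proteins of this family are small secreted proteins that join a proline-rich stretch to a cysteine-rich domain of the kind found in plant lipid transfer proteins. AZI1, azelaic acid induced 1, is known for its part in priming systemic resistance to pathogens. EARLI1 takes its name from a transcript first found as induced by aluminium. Many family genes lie next to each other in tandem arrays, and their similar sequences make transcripts of neighbouring copies hard to tell apart on arrays.

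Whole seedlings of 2 genotypes were compared, the wild type, Columbia-0, and a transgenic line of the same cultivar named OE-N6, which overexpresses AT4G16790, a gene that the labels call NHRGP. Plants of both groups were 2 weeks old and were raised at 22 °C on diluted MS medium holding 2% sucrose, with 16 h of light before each 8 h of dark. RNA of each group went onto 1 ATH1 array from Affymetrix, which reads a transcript with a set of short probes. No value has a replicate, an SD or a p-value, and the precision of each is limited by the number of arrays. OE-N6 is a single named line, and the promoter that drives its transgene is not given in the sources used here.

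Values are MAS5 signal intensities on a linear scale, and all ratios are OE-N6 over wild type. Signals under a floor of 111 were raised to it before a ratio was taken, so a gene that lies under it on 1 array is given as a bound. A gene passed the signal filter when its mean over the arrays reached 192. The label check held: AT4G16790 went from a wild-type signal of 91.1 to 5171 in OE-N6, at least 46.4-fold. Across the 5862 genes that passed the filter the median log2 ratio was -0.02. The 1st and 99th percentiles were -0.76 and 0.78, a spread over genes that is no error between replicates. Among 10 control pairs that compare the 3' end of a transcript with its 5' end or middle, 9 had a higher 3' share in OE-N6, with log2 differences from -0.20 to 0.39. Their part in the results was not tested.

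Of the 6 member probe sets that passed the filter, 4 were at least 2-fold higher in OE-N6, 1 was slightly higher and 1 was lower. Over all genes that passed, 0.546% were at least 2-fold higher, and 46.8% had a log2 ratio above 0. No member was at least 2-fold lower, where 0.495% of all genes were. Since the same contrast was used to choose the members, nothing is read from these shares. The median log2 ratio was 1.13 over the 6 and 1.12 over all 7 probe sets, with AT4G22460 entering as a bound. All 6 had signals above the filter level on both arrays, so none passed through OE-N6 alone. In whole seedlings, more RNA per cell and more cells of an expressing type cannot be told apart.

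**Figure D1:**
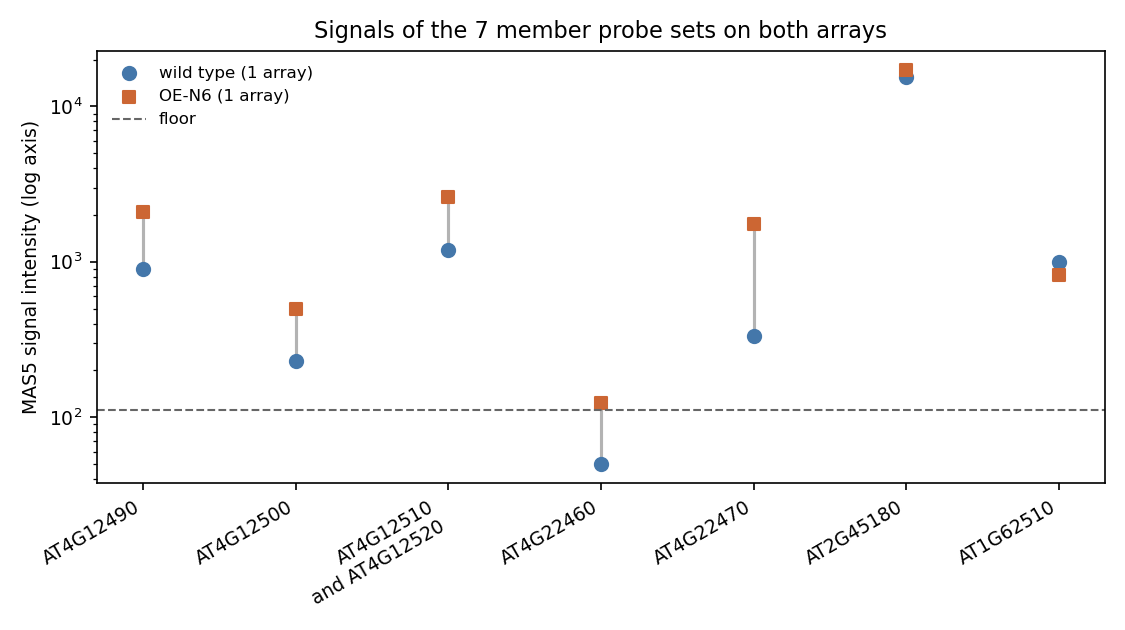
MAS5 signal intensity (log axis) of the 7 member probe sets, with circles for the wild-type array, squares for the OE-N6 array and a dashed line at the floor of 111. AT4G22470 has the longest connecting line, from 330 to 1750, while AT2G45180 and AT1G62510 have nearly equal signals on both arrays.

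The highest member ratio belonged to AT4G22470, in the smaller chromosome 4 group. Its wild-type signal was 330 and its OE-N6 signal 1750. This is a 5.30-fold difference, a log2 ratio of 2.41, and it ranked 2 among the 5862 genes, after AT4G16790. Within each array the probe set stood at percentile 62.1 of wild-type signal and at percentile 91.4 of OE-N6 signal. The same locus in the RefSeq table overlaps AT4G22467, and the table gives no strand, so the signal cannot be assigned to one of the pair.

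AT4G22460, the family gene beside it, was dim on both arrays. Its wild-type signal of 50.1 was under the floor, and its OE-N6 signal of 123 was just above it. OE-N6 was thus at least 1.10-fold higher. Without the floor the log2 ratio was 1.30, which rests on a wild-type signal at percentile 27.2 of that array. Its mean signal of 86.6 did not pass the filter. AT4G22460 overlaps AT4G22463 in the RefSeq table, with the same limit on strand.

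In the larger chromosome 4 group, which runs from AZI1 to AT4G12520, 3 probe sets covered 4 of 6 members, and all 3 were more than 2-fold higher in OE-N6. AT4G12490 had a wild-type signal of 893 and an OE-N6 signal of 2097, a 2.35-fold difference with a log2 ratio of 1.23 that ranked 19. AT4G12500 had 228 and 496, a 2.17-fold difference with a log2 ratio of 1.12 that ranked 25. The probe set shared by AT4G12510 and AT4G12520 had 1189 and 2617, a 2.20-fold difference with a log2 ratio of 1.14. Signals of these probe sets depend on their probes and are not compared with each other. Their ratios are set side by side, and how far these too depend on the probes was not tested. The 3 log2 ratios lay within 0.11 of each other, with a median of 1.14. AT4G12490 overlaps AT4G12495 in the RefSeq table. Probe sequences were not used here, so how far each probe set also reads the other copies was not tested, and the 3 ratios may not be independent.

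**Figure D2:**
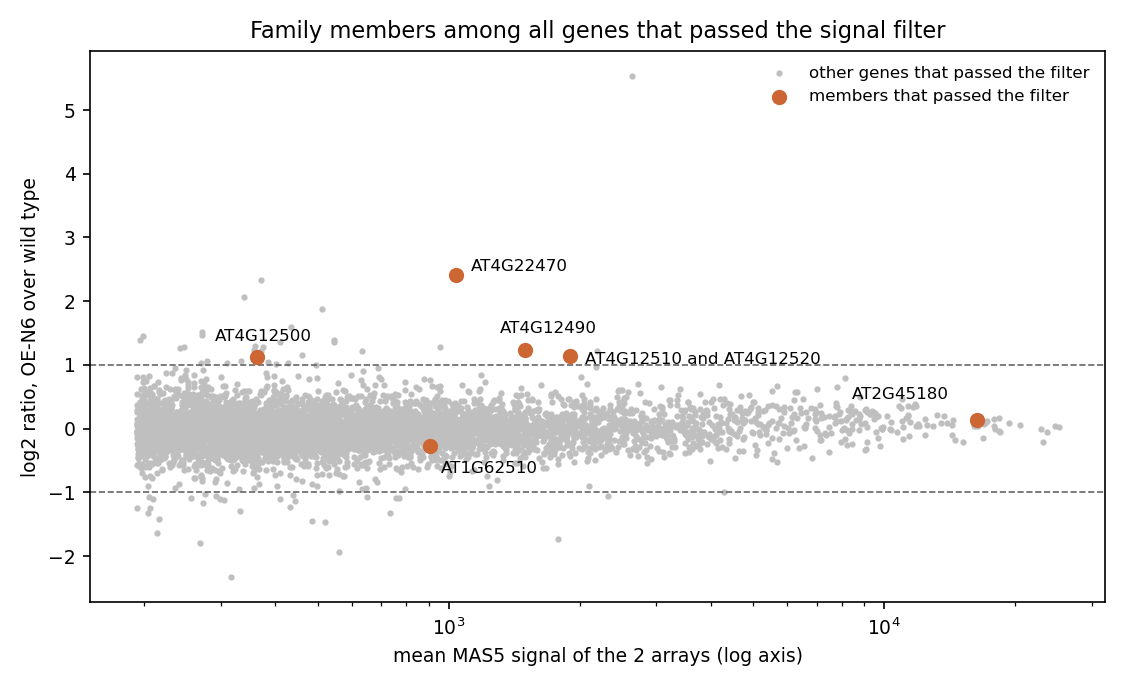
Log2 ratio of OE-N6 over wild type against mean MAS5 signal (log axis) for each gene that passed the filter in grey and for the 6 member probe sets that passed in orange, with dashed lines at 2-fold. The 4 chromosome 4 probe sets lie above the upper line, AT4G22470 highest at 2.41, and AT2G45180 and AT1G62510 lie within the grey band.

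The spread of ratios was wider among dim genes than among bright ones, which bears on AT4G12500. For other genes with a mean signal within 2-fold of AT4G12500, the 99th percentile of the log2 ratio was 0.84, and 0.701% of 3708 genes were at least 2-fold higher. Around AT4G12490 the 99th percentile was 0.65, and 0.18% of 1665 genes were at least 2-fold higher. Around AT4G22470 the share was 0.173% of 2312 genes. Genes with a log2 ratio at least as high as the member's numbered 19 around AT4G12500, 2 around AT4G12490 and 0 around AT4G22470. There were 3 such genes around the probe set shared by AT4G12510 and AT4G12520. These figures describe the same 2 arrays and give no error for a member. Because the members were selected on such ratios, the counts only place them among other genes and test nothing.

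The 2 members outside chromosome 4 did not share the difference. AT2G45180, on chromosome 2, had a wild-type signal of 15570 and an OE-N6 signal of 17059, a log2 ratio of 0.13. It stood at percentile 99.7 of signal on the wild-type array and 99.8 on the OE-N6 array. For genes with a mean signal within 2-fold of it, the 1st and 99th percentiles of the log2 ratio were -0.32 and 0.46, which hold the value of AT2G45180 between them. AT1G62510, on chromosome 1, had 993 and 823, a log2 ratio of -0.27, and was the 1 member that was lower in OE-N6. This locus overlaps AT1G62515 in the RefSeq table, which gives no strand. The ratio of AT1G62510 also lay between the 1st and 99th percentiles of genes with like signal, -0.71 and 0.68. Whether brightness near the top of the array compressed the ratio of AT2G45180 was not tested.

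Along the chromosome, the bordering loci that could be measured were dim, and they lay on a single side of each group. Beyond AT4G12520, AT4G12530 had a wild-type signal of 16.0 and an OE-N6 signal of 39.8, and AT4G12540 had 25.3 and 76.8. Before AT4G22460, the pseudogene AT4G22450 had 23.6 and 43.0, and AT4G22440 had 23.8 and 18.8. All 4 were under the floor on both arrays, so no ratio is given and the edge of the higher region cannot be placed on those sides. The 2 loci before AZI1 and the 2 after AT4G22470 had no named probe set here. Further beyond AT4G22470, AT4G22490 was bright, with a log2 ratio of -0.35.

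**Figure D3:**
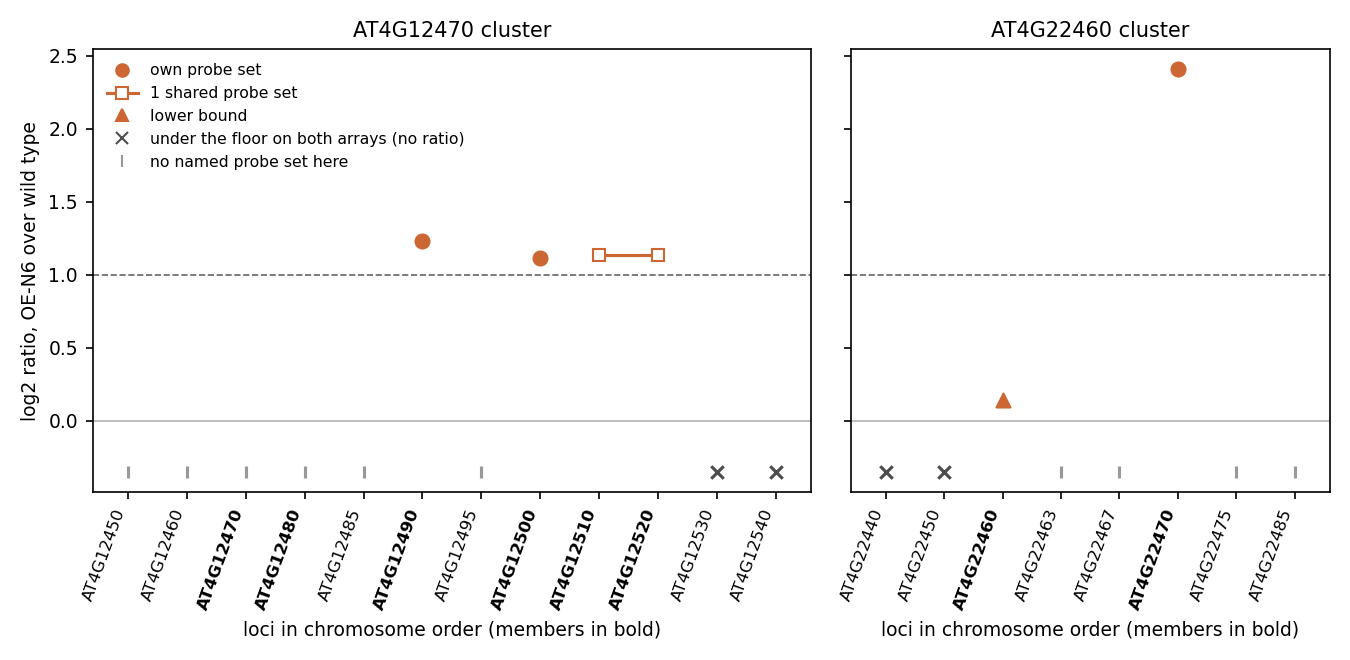
Log2 ratio of OE-N6 over wild type for loci in chromosome order along the larger (left) and smaller (right) chromosome 4 group, members in bold, with marks in the bottom strip for loci that have no ratio. The 3 probe sets of the larger group lie close together between 1.12 and 1.23, whereas AT4G22470 lies at 2.41 and AT4G22460 has only a lower bound of 0.14.

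Other hybrid proline-rich genes that passed the filter gave log2 ratios from -0.35 to 0.94. The members were selected on such ratios, so these genes are not ranked against them. Of 17 listed loci outside the 10 members, 6 probe sets were measured and 4 passed the filter: 3 were higher and 1 lower, none by 2-fold, with a median log2 ratio of 0.28. The highest was a probe set shared by AT5G46890 and AT5G46900 with signals of 962 and 1851 and a log2 ratio of 0.94. The lowest was AT4G22490, which lies a few loci beyond AT4G22470 on chromosome 4, with a wild-type signal of 5212, an OE-N6 signal of 4076 and a log2 ratio of -0.35. The locus next to AT1G62510, AT1G62500, had signals of 569 and 727, a log2 ratio of 0.35. It was named after its value was seen. AT1G62510 and AT1G62500 had ratios on opposite sides of 0, as did AT4G22470 and AT4G22490, with no replicate behind either difference. AT4G22460, the family gene beside AT4G22470, was on the same side as AT4G22470, with a lower bound of 0.14.

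Few lipid transfer proteins without the proline-rich stretch could be measured. Of 12 loci listed as type 1 lipid transfer proteins, 2 passed, AT5G01870 with a log2 ratio of 0.47 and AT2G18370 with -0.34. Of 25 listed loci of the lipid transfer proteins anchored to the membrane by a glycolipid, 6 passed, 3 higher and 3 lower, with a median of 0.13 that became 0.34 with a stricter filter at a mean signal of 578. They ran from -0.34 for AT3G58550 to 0.68 for AT1G62790. None of the genes in these 2 lists reached 2-fold. In the first list 1 more probe set and in the second 6 more were under the floor on both arrays. Most loci of the lists had no named probe set, so the lists are covered only in part.

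Genes that act with AZI1 in systemic resistance, or mark it, were sparsely covered. Of 22 listed loci, 4 had a named probe set and 3 passed the filter, all higher and none by 2-fold, with a median log2 ratio of 0.42. Among these 3, AT5G03350 had the highest value at 0.51 and AT5G48490 the lowest at 0.21. SAG101, which did not pass the filter, had a signal of 158 on both arrays. Without the filter the median was 0.31. Of 13 loci listed as cold-responsive, 7 probe sets were measured and 6 passed, 1 higher and 5 lower, none by 2-fold, with a median of -0.27. Of the 5, LTI30 had nearly equal signals, and its sign turned under median centring. Among the 6, COR47 had the highest log2 ratio at 0.03, which turned below 0 under quantile and loess scaling. The probe set shared by KIN1 and KIN2 had the lowest at -0.83. COR15A, which did not pass the filter, had 0.08. Over all genes that passed, 46.8% had a log2 ratio above 0, and the 1st and 99th percentiles were -0.76 and 0.78. Apart from the probe set of KIN1 and KIN2, the measured genes of both lists lay between these percentiles. No direction is read from so few genes.

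**Figure D4:**
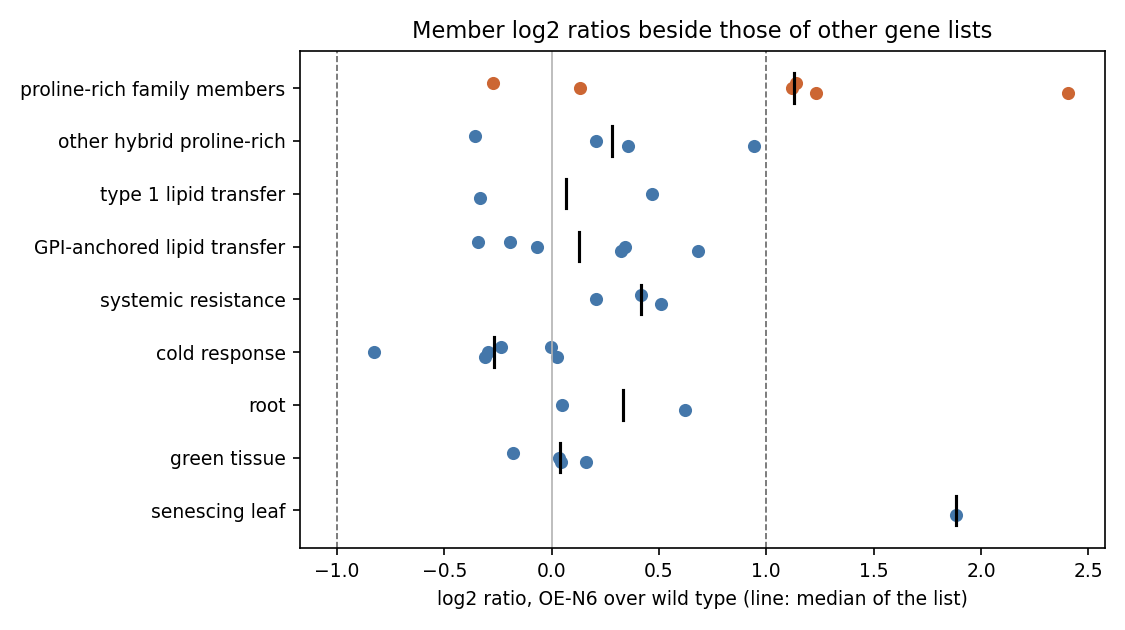
Log2 ratio of OE-N6 over wild type for the measured genes that passed the filter in each list, as dots, with a black line at each list's median and dashed lines at 2-fold. The family members, chosen for their ratios, have 4 dots beyond 2-fold, and the only other dot there is SAG29 of the senescing leaf list at 1.88.

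Markers of tissues were set beside the members. Of the green tissue markers 4 were measured, with log2 ratios from -0.18 for LHCB4.2 to 0.16 for PSAN, and their summed signal was 47694 on the wild-type array and 48983 on the other. Of 11 root markers 3 were measured, with a summed signal of 16313 and 16998, nearly all of it from PYK10, an abundant root beta-glucosidase with signals of 15970 and 16513. PYK10 had a log2 ratio of 0.05, whose sign turned under loess scaling. The root hair expansin genes were dim and somewhat higher. EXPA18 had signals of 188 and 290, a log2 ratio of 0.62. EXPA7, which did not pass the filter, had 155 and 196, a log2 ratio of 0.34. Both ratios lay between the 1st and 99th percentiles of all genes that passed, -0.76 and 0.78. All 4 measured markers of pollen and anther were under the floor on both arrays. Of 3 listed markers of senescing leaf only SAG29 had a named probe set, and it was 3.69-fold higher, from 219 to 806. The lists were chosen with earlier results of these data known, and SAG29 alone cannot stand for its list. The part of tissue composition or senescence in the member ratios was not tested.

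With 2 arrays, likeness of pattern can only mean similar signals on each, which for different probe sets also depends on their probes. The 3 other genes nearest to AT4G22470, by distance in log2 signal over the 2 arrays, were ndhE of the chloroplast NDH complex at 0.84, the subtilase gene SBT4.12 at 1.00 and AT2G21045 at 1.07. Their log2 ratios were 1.28, 1.22 and 0.95.

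The scaling and the floor left the direction of all 7 member probe sets as given. Under 6 alternatives each, AT4G22470 ran from 2.38 to 2.45, AT4G12490 from 1.22 to 1.27, AT4G12500 from 1.09 to 1.16 and the shared probe set of AT4G12510 and AT4G12520 from 1.13 to 1.18. AT2G45180 ran from 0.04 to 0.17 and AT1G62510 from -0.27 to -0.23. AT4G22460 was the exception in size, with values from 0.16 to 1.30.

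**Figure D5:**
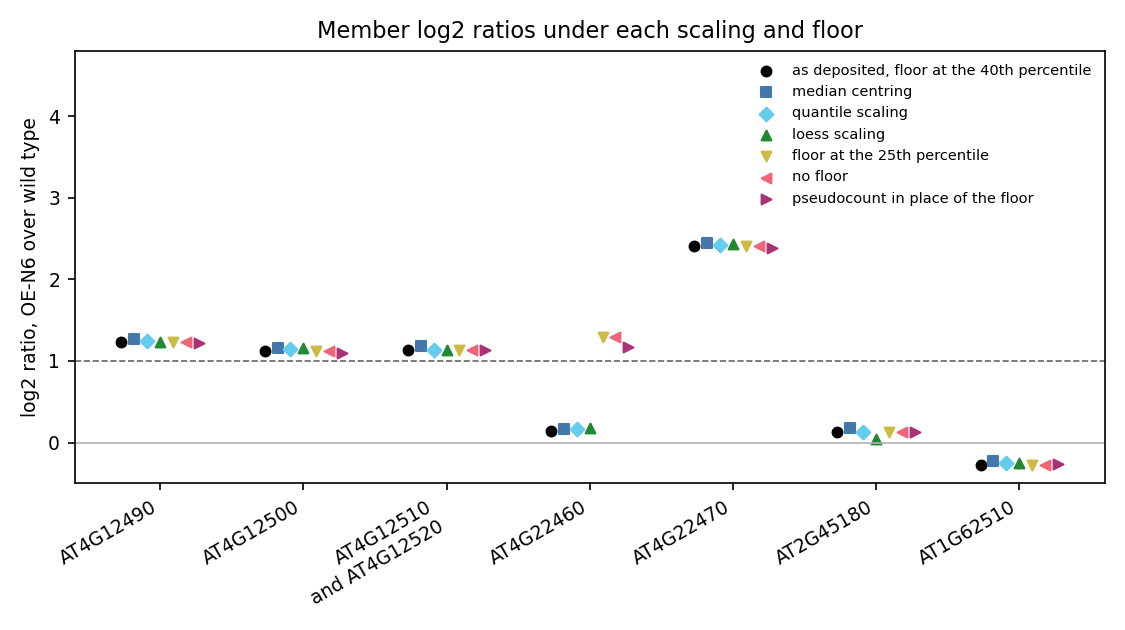
Log2 ratio of OE-N6 over wild type for each member probe set under the deposited scaling and 6 alternatives, with a dashed line at 2-fold. Symbols overlap for 6 probe sets, whereas those of AT4G22460 are spread. It lies between 0.14 and 0.18 with the floor at the 40th percentile, taken anew after each scaling. It lies at 1.18 with the pseudocount and at 1.30 with the lower floor or none.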

How the data were processed

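Per the labels' protocols, 6 µg of total RNA was taken per genotype, and its biotin-labelled product went onto 1 ATH1 array. The table deposited by the authors holds linear signal intensity per probe set, made with MAS5 per the submitters' processing notes. No version or settings of MAS5 are stated there. With the highest and lowest 2% of probe sets left out, both columns have a mean of 500.0, so a change shared by most transcripts would not show. Of 22746 non-control probe sets, 13513 list 1 gene, 503 several and 8730 are unnamed here. Names, order and overlap of loci come from the RefSeq table of TAIR10.1; no build is named for the arrays, so no coordinates are given.

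For a gene with several probe sets, that with the highest mean signal was used. The floor was the 40th percentile of all non-control values and the filter the median of their mean signals. A probe set shared only by list members counted as 1. The members and lists were chosen with earlier results of these data known. Named were all members, the target, each list's highest and lowest gene and any past 2-fold, named bordering loci, and the 3 genes nearest to the highest member. The procedure was tested on simulated data. Python 3.11.15, numpy 2.4.6, pandas 2.3.3, statsmodels 0.14.6 and matplotlib 3.10.9 were used.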

Additional observations from a re-analysis of the deposited data

How the results depend on the processing

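Ratios were recomputed with 3 other scalings (centring on the median, quantile, loess), with a lower floor of 41.4, without a floor, and with a pseudocount of 7.85. Counts and medians were also taken unfiltered, with a stricter filter at 578, and without shared probe sets. Gene counts were further made from averaged probe sets, and counts of genes and of member probe sets were made at 1.5-fold. Of 169 recomputed values, 162 stayed within 1.5-fold of the first value, and no value past 2-fold changed sign. Log2 ratios and their medians were compared as folds here, so a small log2 ratio could stay within this limit and still move by much of its size. The root marker median, for one, went from 0.33 to 0.05 with the stricter filter. The median of the green tissue markers turned from 0.04 to -0.05 under loess and -0.01 under quantile scaling. The member median ran from 1.11 to 1.17 under 9 alternatives. The count of member probe sets at least 2-fold higher was 3 or 4 under 10, among them the 1.5-fold threshold in place of 2-fold. AT4G22460 had a log2 ratio of 1.30 with the lower floor or none and 1.18 with the pseudocount, because its wild-type signal is under the floor. Over all genes, the 32 genes past 2-fold upward and the 29 downward became 6 and 6 with the stricter filter, which tests fewer genes, and 143 and 141 at 1.5-fold. The scalings moved the median of all genes by 0.02 to 0.04. No paired analysis was possible because the groups hold a single array apiece. Dim signal limits AT4G22460 and the bordering loci most.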
